A study of Mus musculus with 6 samples.

Results

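The genes described here are 10 genes of oxygen sensing and of the bHLH-PAS family of transcription factors, out of 37991 gene rows in the count table. They are the hypoxia-inducible factor alpha subunits Hif1a, Epas1 and Hif3a, the dimer partners Arnt and Arnt2, the aryl hydrocarbon receptor Ahr, the von Hippel-Lindau gene Vhl and the prolyl hydroxylases Egln1, Egln2 and Egln3. They were picked by function with earlier results of these libraries in view, among them a call on Arnt2 and the level of Trim28 in each library. All 10 were found in the table by symbol, and all 10 passed the filter on low counts.

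Regulatory T cells (Tregs), the Foxp3-expressing CD4 T cells that restrain immune responses, were taken from mouse spleen as YFP-positive CD4 cells by sorting, and their RNA was sequenced. The labels give 3 libraries of KAP1 deficient Tregs and 3 of wild type, KAP1 sufficient Tregs. Trim28 encodes KAP1, which KRAB zinc finger proteins recruit to DNA and which in turn draws silencing enzymes to chromatin. The study's title concerns the role of KAP1 in Treg function and proliferation. All 6 libraries are from spleen. The labelled strain is C57BL/6 for 4 libraries, while the libraries labelled deficient replicates 2 and 3 carry the strain labels C57BL/7 and C57BL/8. No source used here states the Trim28 allele, any Cre driver, what drives the YFP, the age of the animals or whether each library came from a separate animal. The p-values below therefore measure the spread between these libraries, which may be technical.

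As background, HIF alpha subunits are made continuously. In oxygenated cells EGLN enzymes hydroxylate them on prolines, VHL then binds them, and its ubiquitin ligase complex marks them for degradation. In low oxygen the alpha subunit persists, pairs with ARNT and binds DNA motifs built around ACGTG or GCGTG, next to genes of glycolysis, glucose uptake and mitophagy. AHR, a sensor of small aromatic ligands, also pairs with ARNT and binds a motif with the core GCGTG. In T cells HIF1A is known for promoting glycolysis and the Th17 programme at the expense of Tregs, and AHR for roles in Treg and Th17 cells at barrier tissues. HIF control acts mainly on protein stability, which RNA counts do not measure.

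Trim28 was read first, since it checks the labels. It lies on chromosome 7 (12999114 to 13031035, mm10). It had 23.0, 18.6 and 231 CPM (counts-per-million of the library's total) in the libraries labelled deficient replicates 1, 2 and 3, against 244, 244 and 21.2 CPM in those labelled sufficient replicates 1, 2 and 3. Both libraries of replicate 3 go against their labels: taking the mean of sufficient replicates 1 and 2 as 100%, Trim28 stood at 94.9% in the library labelled deficient replicate 3 and at 8.68% in the library labelled sufficient replicate 3. Its log2 fold change was -0.90 ± 1.46 over all 6 libraries (adjusted p = 0.889, edgeR) and -3.54 ± 0.08 over replicates 1 and 2. The labels were left as they are. For each gene the first result is the test by label, with all 6 libraries and with the 4 libraries of replicates 1 and 2, where Trim28 follows the label. The other, with no test because the sets come from a measured value, is the level in the libraries low in Trim28 (deficient replicates 1 and 2, sufficient replicate 3) beside those high in it (deficient replicate 3, sufficient replicates 1 and 2). Fold changes are log2, deficient over sufficient, from edgeR's quasi-likelihood test, with standard error (SE) and a p-value adjusted by Benjamini-Hochberg over all tested genes.

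The library totals lay between 9954344 and 10994745 counts, so that a gene with no count could have been at up to 0.273 to 0.301 CPM in a library (3 counts, for counting error only). The Treg markers Foxp3, Il2ra, Ctla4, Ikzf2, Tnfrsf18, Cd4 and Cd3e were detected in every library, with 43634 to 49540 counts in sum. In the 4-library test described below, Foxp3 fell by 0.25 ± 0.05 and Cd4 by 0.15 ± 0.05 on the log2 scale, Ikzf2 rose by 0.19 ± 0.05 and the other 4 did not pass (adjusted p = 0.00509, 0.0456 and 0.0167 for the 3 called, edgeR). Of the 9 endothelial and stromal markers, Cdh5, Kdr, Tie1, Tek, Emcn and Pdgfrb had at most 3 counts in any library and 4 of the 9 were at 0 in all, while Pecam1, which T cells also express, made up 99.2% of the list's counts. Of the B cell markers, Ighm made up 96.6% of the counts and the others summed to 15.4 to 16.0 CPM in the libraries low in Trim28 and to 23.0 to 27.6 CPM in those high in it, while Ms4a1 had at most 3 counts in any library. Ighm had 528, 533 and 583 CPM in the libraries labelled deficient, against 616, 669 and 565 CPM in those labelled sufficient, lower wherever Trim28 was low. In the 4-library test 3 of the 4 tested B cell markers fell and Cd79b did not pass. The log2 falls were 2.55 ± 0.57 for Igkc, 1.18 ± 0.22 for Cd22 and 0.27 ± 0.05 for Ighm (adjusted p = 0.00669, 0.00171 and 0.00252, edgeR). The myeloid and dendritic markers summed to 59 to 83 counts, the CD8 T and natural killer markers to 333 to 439 counts and the erythroid markers to 0 to 2 counts per library. Within these sums Klrb1c had 10.8, 9.64 and 2.18 CPM in the libraries labelled deficient, against 2.77, 2.55 and 8.74 CPM in those labelled sufficient, higher wherever Trim28 was low, and Nkg7 had 13.2, 12.5 and 21.4 CPM, against 19.4, 16.5 and 12.3 CPM, lower wherever it was low. Both were called in the 4 libraries (log2 fold changes 1.94 ± 0.22 and -0.48 ± 0.14). The part of these markers in the results below was not tested.

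Measured per exon length, the 10 genes spanned a wide range of levels and kept nearly the same order in every library. Hif1a was highest, at 53.1 ± 0.261 RPKM (the CPM value per kilobase of exon) in the libraries labelled deficient and 49.02 ± 2.94 RPKM in those labelled sufficient (SD, n = 3 each, as for all means below). Egln2 and Egln1 followed, at 25.9 ± 0.736 and 23.8 ± 1.98 RPKM in the libraries labelled deficient, against 26.9 ± 1.65 and 23.8 ± 0.972 RPKM in those labelled sufficient. Arnt had 12.7 to 14.1 RPKM over the 6 libraries, Vhl 9.05 to 10.9 RPKM, Ahr 4.07 to 5.87 RPKM and Egln3 1.96 to 4.83 RPKM. The other 3 genes lay mostly under 1 RPKM: Hif3a at 0.340 to 1.05 RPKM, Epas1 at 0.284 to 0.650 RPKM and Arnt2 at 0.129 to 0.515 RPKM. The neighbours Egln2 and Egln1 did not overlap in level over the libraries, whereas Ahr and Egln3 did, as did Hif3a, Epas1 and Arnt2. Hif3a and Epas1 changed places in the library labelled sufficient replicate 3 alone.

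**Figure D1:**
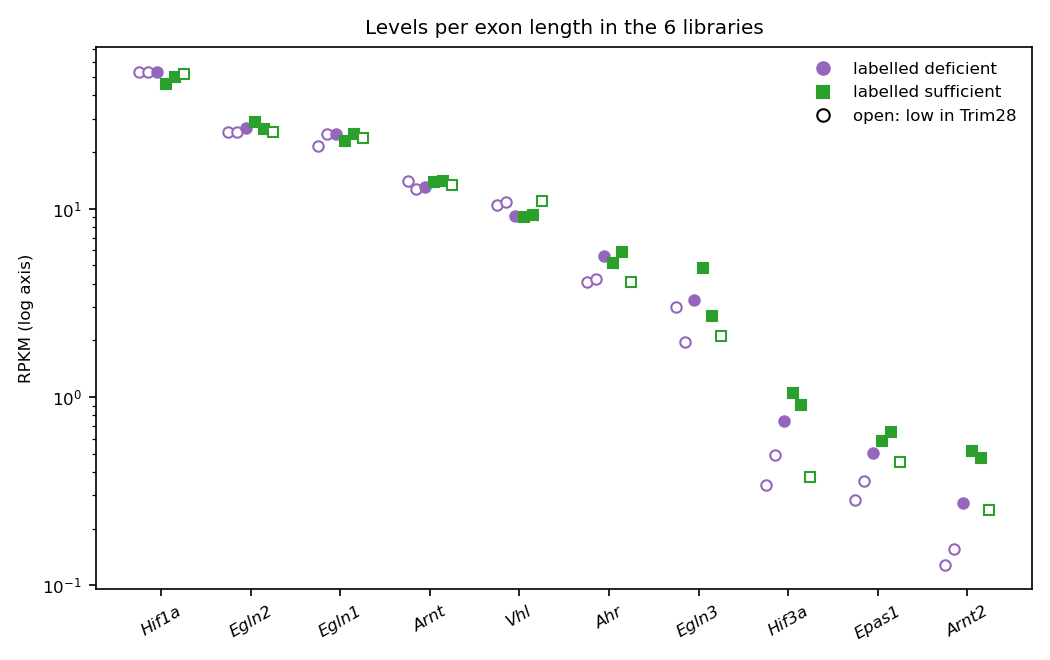
Level of each of the 10 genes per exon length (RPKM, log axis) in the 6 libraries, purple circles for those labelled deficient and green squares for those labelled sufficient, with open symbols for libraries low in Trim28. Hif1a (45.8 to 53.3 RPKM) stood above all others in every library, and Arnt2 was lowest in every library.

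Of the 10 genes, none passed the test with all 6 libraries (lowest adjusted p = 0.632, edgeR), where 0.0165% of the 12158 tested genes were called. At an unadjusted p under 0.05 the test found 1 of the 10, Arnt2, and 944 genes in all. DESeq2 and limma-voom called 0 of the 10. With the 4 libraries of replicates 1 and 2, Arnt2, Hif3a, Epas1 and Ahr fell, which is 4 of the 10, while 0 rose and 6 missed the threshold, where 17.4% of 12183 genes were called, 7.39% lower and 9.96% higher. Under upper-quartile scaling the split over all genes was 10.2% lower and 8.59% higher. The median log2 fold change of the 10 genes was -0.25 in the 4 libraries, beside -0.002 over all tested genes, and -0.09 in the 6 libraries, beside -0.004. Where a library is left out of the 4 below, 1 group has a single library, which is assumed to vary like the other group. The libraries chosen for the 4-library test and the genes were both picked with results known, so these counts are a description of the set.

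**Figure D2:**
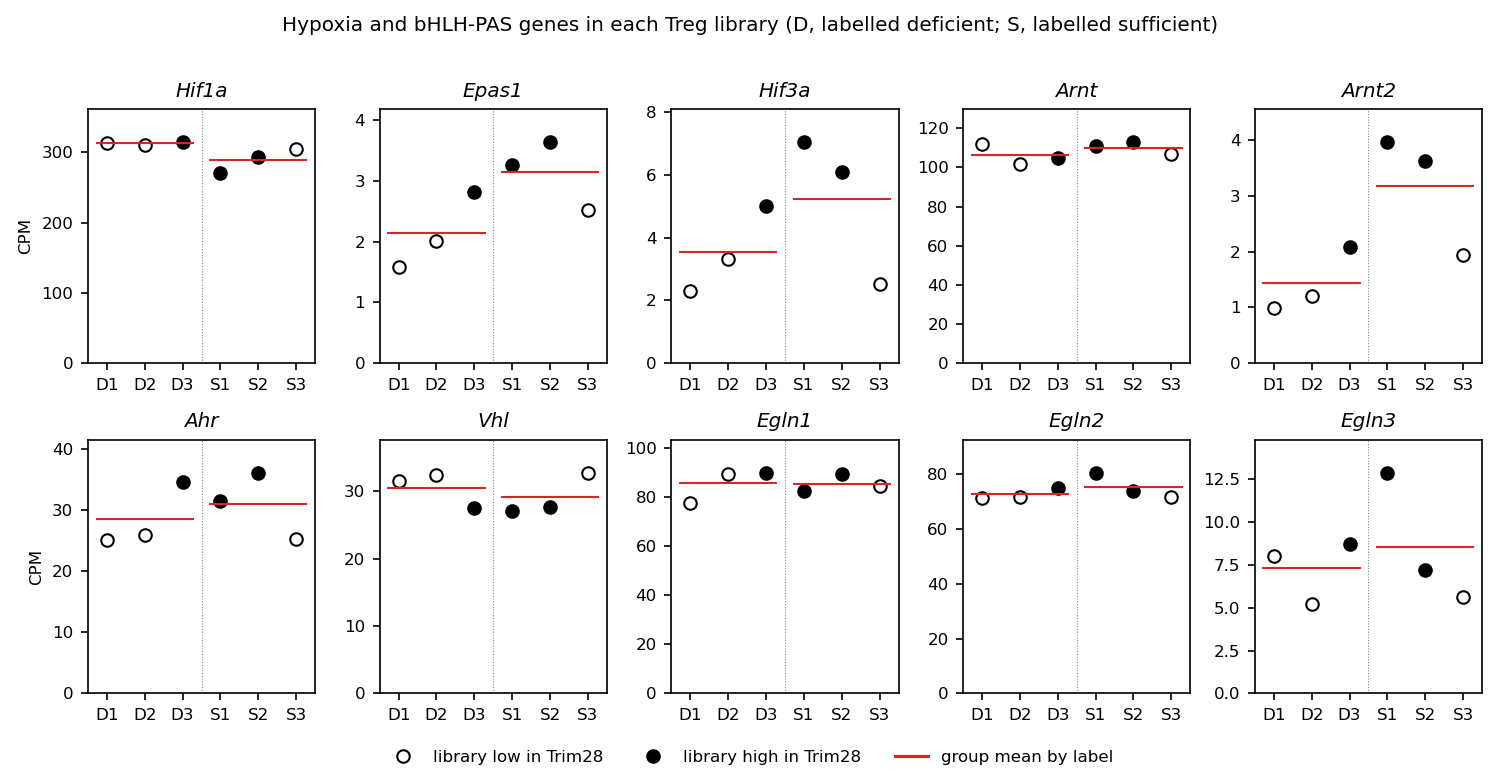
CPM of each gene in the libraries labelled deficient (D1 to D3) and sufficient (S1 to S3), each panel on its own axis from 0, with red lines at the label means and open symbols for libraries low in Trim28. For Hif3a, Arnt2, Epas1, Ahr and, by a small margin, Egln2 the 3 open symbols lie below the 3 filled ones, and for Vhl above them.

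Among the HIF alpha subunits, the 2 lowly expressed ones, Hif3a and Epas1, fell in the 4 libraries, while Hif1a, which supplied 96.6 to 98.8% of the alpha subunit RPKM in each library, did not pass the test. Hif1a encodes the alpha subunit found in most cell types. It had 313, 311 and 314 CPM in the libraries labelled deficient replicates 1, 2 and 3, against 270, 293 and 304 CPM in those labelled sufficient. The label groups did not overlap, which held for 1 of the 10 genes and for 12.8% of all tested genes, but the gap between the nearest libraries was small. The log2 fold change was 0.11 ± 0.06 with all 6 libraries (adjusted p = 0.654, edgeR) and 0.16 ± 0.05 with 4 (adjusted p = 0.0573, edgeR). Without the library labelled sufficient replicate 2, which leaves 1 sufficient library, the 4-library value was 0.21 (adjusted p = 0.0285, edgeR), with an adjusted p of 0.0285 to 0.265 over the alternatives run. Hif1a was also called in the 4 libraries when the filter on low counts was dropped. By Trim28 level the libraries overlapped, at 309.5 ± 4.80 CPM where Trim28 was low and 292.3 ± 21.98 CPM where it was high.

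Hif3a encodes an alpha subunit whose short splice forms are known as inhibitors of the other two. Its CPM values were 2.28, 3.32 and 5.002 in the libraries labelled deficient replicates 1, 2 and 3, against 7.03, 6.09 and 2.52 in those labelled sufficient (23, 33 and 55 counts, against 71, 62 and 26). The library labelled sufficient replicate 3 sat with deficient replicates 1 and 2. That labelled deficient replicate 3 lay between those libraries and sufficient replicates 1 and 2. The label groups overlapped, with a log2 fold change of -0.56 ± 0.41 (adjusted p = 0.721, edgeR). In the 4 libraries Hif3a fell by 1.22 ± 0.25 on the log2 scale (adjusted p = 0.00341, edgeR). By Trim28 level the sets did not overlap, with a mean of 2.71 ± 0.541 CPM in the low libraries and 6.04 ± 1.01 CPM in the high ones. Its share of the alpha subunit RPKM was 0.632%, 0.921% and 1.37% in the libraries labelled deficient, against 2.21%, 1.77% and 0.718% in those labelled sufficient.

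Epas1 encodes HIF2A, the alpha subunit best known from endothelium and erythropoietin control. It had 1.59, 2.01 and 2.82 CPM in the libraries labelled deficient, against 3.27, 3.63 and 2.52 CPM in those labelled sufficient (16, 20 and 31 counts, against 33, 37 and 26). The order followed Trim28, though the nearest low and high libraries, at 2.52 and 2.82 CPM, were close. The log2 fold change was -0.55 ± 0.28 with all 6 libraries (adjusted p = 0.654, edgeR) and -0.93 ± 0.30 with 4 (adjusted p = 0.0421, edgeR). The call in the 4 libraries was lost without any one of them, in fits of 2 libraries against 1 where the fold change kept its direction and was within 1.5 times of that value (log2 fold changes -0.77 to -1.11, adjusted p = 0.0883 to 0.242, edgeR) and in DESeq2 (adjusted p = 0.415), with an adjusted p of 0.0289 to 0.415 over the alternatives run. The endothelial markers Cdh5, Kdr, Tie1, Tek and Emcn had 0 to 1 counts in any library, where Epas1 itself had 16 to 37. The stromal collagen gene Col1a1 had 3, 8 and 15 counts in the libraries labelled deficient, against 16, 13 and 6 in those labelled sufficient. Col1a2 had 4, 2 and 15 counts, against 9, 12 and 1. The part of endothelial or stromal RNA in the Epas1 values was not tested. In bulk RNA fewer cells of a type and less RNA per cell cannot be told apart.

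Of the dimer partners, the highly expressed Arnt passed neither test and the lowly expressed Arnt2 fell in the 4 libraries. The difference between their fold changes was not tested. Arnt, the partner shared by the HIF alpha subunits and AHR, had 112, 102 and 105 CPM in the libraries labelled deficient, against 111, 113 and 107 CPM in those labelled sufficient. The groups overlapped by label and by Trim28 level, with log2 fold changes of -0.05 ± 0.06 (6 libraries, adjusted p = 0.819, edgeR) and -0.06 ± 0.06 (4 libraries, adjusted p = 0.590, edgeR). Arnt2, a paralog best known from neurons and the hypothalamus, was the lowest of the 10 genes and had the largest fold change among them in both tests.

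Arnt2 had 0.992, 1.21 and 2.09 CPM in the libraries labelled deficient replicates 1, 2 and 3, against 3.96, 3.63 and 1.94 CPM in those labelled sufficient (10, 12 and 23 counts, against 40, 37 and 20). Both libraries of replicate 3 lay between the other pairs: with sufficient replicates 1 and 2 averaged to 100%, Arnt2 stood at 55.1% in the library labelled deficient replicate 3 and at 51.1% in that labelled sufficient replicate 3. It was through these libraries that the label groups overlapped. The sets by Trim28 level did not overlap, but the nearest low and high libraries, at 1.94 and 2.09 CPM, held 20 and 23 counts. With all 6 libraries the log2 fold change was -1.14 ± 0.37 (unadjusted 0.0119 and adjusted p = 0.632, edgeR), and it was -1.39 without the library labelled sufficient replicate 3 (adjusted p = 0.0303, edgeR), with an adjusted p of 0.00136 to 0.9999 over the alternatives run. In the 4 libraries Arnt2 fell by 1.77 ± 0.32 on the log2 scale (adjusted p = 0.00136, edgeR), to 28.9% of the sufficient mean. By Trim28 level it averaged 1.38 ± 0.498 CPM in the low libraries and 3.23 ± 0.998 CPM in the high ones. Of the RPKM of both partners, Arnt2 made up 0.913%, 1.22% and 2.04% in the libraries labelled deficient, against 3.59%, 3.25% and 1.86% in those labelled sufficient, so Arnt supplied most partner RNA in every library.

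**Figure D3:**
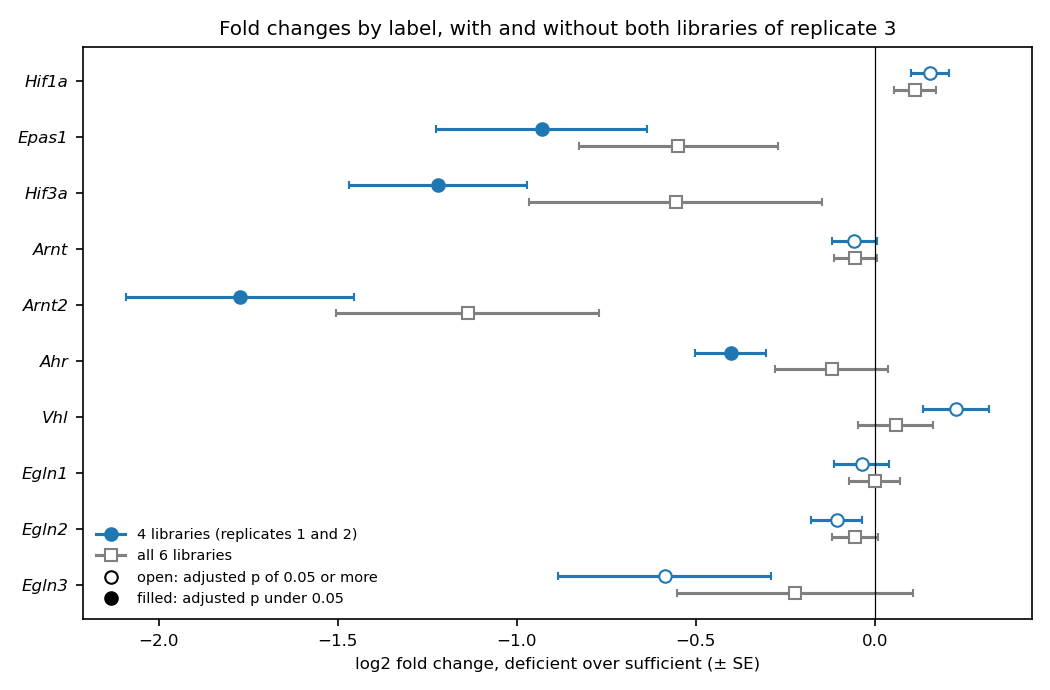
Log2 fold change, deficient over sufficient, of each gene with its SE in the 4 libraries of replicates 1 and 2 (blue circles) and in all 6 libraries (grey squares), filled where the adjusted p was under 0.05. Arnt2, Hif3a, Epas1 and Ahr are filled in the 4 libraries, and no gene is filled with all 6.

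Of the 4 genes that fell, Ahr had the smallest spread, relative to its mean, within the low and within the high libraries. It had 25.1, 25.9 and 34.6 CPM in the libraries labelled deficient replicates 1, 2 and 3, against 31.6, 36.2 and 25.2 CPM in those labelled sufficient (253, 258 and 380 counts, against 319, 368 and 260). Relative to the average of sufficient replicates 1 and 2, Ahr was at 75.3% in deficient replicates 1 and 2, at 102.1% in the library labelled deficient replicate 3 and at 74.5% in that labelled sufficient replicate 3. By label the groups overlapped, at 28.5 ± 5.24 CPM in deficient and 31.0 ± 5.48 CPM in sufficient libraries, with a log2 fold change of -0.12 ± 0.16 (adjusted p = 0.853, edgeR). In the 4 libraries Ahr fell by 0.40 ± 0.10 on the log2 scale (adjusted p = 0.0111, edgeR). This call was lost in DESeq2 (adjusted p = 0.144) and without the library labelled sufficient replicate 2 (log2 fold change -0.31, adjusted p = 0.0856, edgeR), with an adjusted p of 0.0007 to 0.144 over the alternatives run. By Trim28 level it averaged 25.4 ± 0.439 CPM in the low libraries and 34.1 ± 2.32 CPM in the high ones, without overlap.

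None of the inhibitors of HIF alpha stability passed either test. By Trim28 level 2 of them did not overlap, Vhl being higher and Egln2 lower in the low libraries. The same held, in either direction, for 26.4% of all tested genes. Vhl, the substrate receptor of the ligase, had 31.5, 32.5 and 27.5 CPM in the libraries labelled deficient, against 27.1, 27.7 and 32.7 CPM in those labelled sufficient. It was the 1 gene of the 10 that was higher in all low libraries, at 32.2 ± 0.670 CPM against 27.4 ± 0.292 CPM in the high ones, while its log2 fold changes were 0.06 ± 0.11 (6 libraries, adjusted p = 0.895, edgeR) and 0.23 ± 0.09 (4 libraries, adjusted p = 0.109, edgeR). Egln2, a prolyl hydroxylase that is mainly nuclear, had 71.3, 71.4 and 74.9 CPM in the libraries labelled deficient, against 80.4, 73.9 and 71.5 CPM in those labelled sufficient. Its low and high sets were apart by 71.5 and 73.9 CPM at the nearest, and its 4-library log2 fold change was -0.11 ± 0.07 (adjusted p = 0.347, edgeR).

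Egln1, the main oxygen sensor of most cells, had 77.4, 89.5 and 89.9 CPM in the libraries labelled deficient, against 82.5, 89.3 and 84.7 CPM in those labelled sufficient. Its means were 85.6 ± 7.11 CPM in deficient and 85.5 ± 3.49 CPM in sufficient libraries, and its 4-library log2 fold change was -0.04 ± 0.08 (adjusted p = 0.801, edgeR). Egln3, itself known as a HIF target, had 8.04, 5.22 and 8.73 CPM in the libraries labelled deficient, against 12.9, 7.17 and 5.63 CPM in those labelled sufficient. Its spread within groups was wide, chiefly through the library labelled sufficient replicate 1, and its groups overlapped by label and by Trim28 level. The 4-library log2 fold change of Egln3 was -0.59 ± 0.30 (adjusted p = 0.219, edgeR), and it moved with each library. In fits of 2 libraries against 1 it was -0.94 without deficient replicate 1 (adjusted p = 0.00441, edgeR) and -0.96 without sufficient replicate 2 (adjusted p = 0.0111, edgeR), but -0.31 without deficient replicate 2 and -0.10 without sufficient replicate 1, with an adjusted p of 0.00441 to 0.853 over the alternatives run. Egln3 was also called in the 4 libraries when the filter on low counts was dropped. Of the RPKM of the 3 hydroxylases, Egln2 supplied 48.6 to 50.9%, Egln1 40.6 to 47.6% and Egln3 3.75 to 8.56% over the libraries.

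By Trim28 level, 6 of the 10 genes did not overlap between low and high libraries, where 26.4% of all tested genes did not. Of these, 5 were lower in the low libraries (Hif3a, Epas1, Arnt2, Ahr and Egln2), beside 14.5% of all tested genes, and 1 was higher (Vhl), beside 11.9%. The differences of mean log2(CPM + 0.5), low minus high, were -1.03 for Hif3a, -0.98 for Arnt2, -0.57 for Epas1, -0.55 for Egln3, -0.41 for Ahr, -0.10 for Egln2, -0.06 for Egln1, -0.03 for Arnt, 0.085 for Hif1a and 0.23 for Vhl. In plain CPM, with sufficient replicates 1 and 2 averaged to 100%, Hif3a stood at 42.7% in deficient replicates 1 and 2 and at 38.5% in the library labelled sufficient replicate 3, and Vhl at 116.5% and 119.4%. Epas1 stood at 52.1% in deficient replicates 1 and 2 and at 73.2% in the library labelled sufficient replicate 3, and Arnt2 at 28.9% and 51.1%, so these 2 genes were less far from 100% in that library.

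The promoters of the genes are shown for 3 members that have a window in the RefSeq table (GRCm38.p6), each 300 bases from 250 before to 50 after the start, read 5' to 3' on the gene's own strand. Arnt2 and Hif3a are shown because they had the largest falls, and Egln3 as a gene known to be a HIF target. Capitals mark ACGTG or GCGTG on either strand. Arnt2 is at chr7:84409989-84410288 on the minus strand, Hif3a at chr7:17062378-17062677 on the minus strand and Egln3 at chr12:54203825-54204124 on the minus strand.
Arnt2: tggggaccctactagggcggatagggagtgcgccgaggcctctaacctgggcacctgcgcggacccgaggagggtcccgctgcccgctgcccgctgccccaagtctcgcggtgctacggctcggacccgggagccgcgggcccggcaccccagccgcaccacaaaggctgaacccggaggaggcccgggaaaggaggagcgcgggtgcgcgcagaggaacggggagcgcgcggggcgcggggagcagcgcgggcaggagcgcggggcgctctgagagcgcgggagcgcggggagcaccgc
Hif3a: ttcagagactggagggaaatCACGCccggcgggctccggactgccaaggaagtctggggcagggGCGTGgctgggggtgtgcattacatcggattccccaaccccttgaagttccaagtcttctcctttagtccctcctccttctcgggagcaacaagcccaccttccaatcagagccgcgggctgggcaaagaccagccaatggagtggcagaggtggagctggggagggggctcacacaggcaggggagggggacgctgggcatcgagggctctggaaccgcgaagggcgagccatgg
Egln3: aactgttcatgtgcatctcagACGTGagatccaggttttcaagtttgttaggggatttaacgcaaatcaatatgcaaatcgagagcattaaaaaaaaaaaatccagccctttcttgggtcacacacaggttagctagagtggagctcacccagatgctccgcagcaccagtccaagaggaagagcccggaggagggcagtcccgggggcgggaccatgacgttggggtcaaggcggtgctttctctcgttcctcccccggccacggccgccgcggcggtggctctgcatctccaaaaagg
The Arnt2 window held 0 matches and had 76.7% G and C, the Hif3a window held 2 matches of GCGTG and had 63.7%, and the Egln3 window held 1 match of ACGTG and had 54.7%. Windows were found for 8 of the 10 genes, and 6 of these 8 held either motif. These genes have 9 windows, of which 7 held either motif. Over all 32851 windows of this length, 19.6% held ACGTG, 32.4% held GCGTG and 43.8% held either. A match describes the letters of the window and does not show binding.

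Of the 10 genes, 3 share chromosome 7 with Trim28 (positions in mm10, GENCODE M21). Hif3a (17031507 to 17062427, minus strand) is 4000472 bases from Trim28, Egln2 (27158658 to 27166802, minus strand) 14127623 bases and Arnt2 (84246278 to 84410176, minus strand) 71215243 bases. Hif1a (73901375 to 73947530, plus strand), Ahr (35497974 to 35535038, minus strand) and Egln3 (54178981 to 54203860, minus strand) are on chromosome 12, Epas1 (86753700 to 86833410, plus strand) on 17, Arnt (95434388 to 95497240, plus strand) on 3, Vhl (113623959 to 113631633, plus strand) on 6 and Egln1 (124908587 to 124949324, minus strand) on 8. Counting by strand is not stated, so reads of an antisense neighbour could be counted with a gene. Hif1a shares 330 exon bases with antisense Gm15283, which had 0 to 1 counts, and Egln2 shares 11 with antisense Cyp2t4, which had 0. Ahr shares 127 exon bases with antisense Gm48236 and Arnt2 shares 214 with antisense Gm30873, and neither neighbour has a row in the count table.

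Of 16 further genes that set HIF stability or act as co-factors, the 4-library test found that 3 rose and 1 fell, while 12 missed the threshold, beside 9.96% higher and 7.39% lower over all tested genes. The median log2 fold change was -0.04, and 0 were called with all 6 libraries. Elongin C, Eloc, a subunit of the VHL ligase, had 41.5, 42.1 and 38.6 CPM in the libraries labelled deficient, against 28.8, 31.8 and 38.7 CPM in those labelled sufficient, and rose by 0.47 ± 0.08 (log2, adjusted p = 0.00144, edgeR). Rbx1, the RING subunit of that ligase, rose by 0.31 ± 0.09 (adjusted p = 0.0356, edgeR), and Ptges3, the HSP90 co-chaperone p23 of the AHR complex, by 0.42 ± 0.09 (adjusted p = 0.00551, edgeR). Crebbp, an acetyltransferase that HIF recruits, had 182.9, 174.6 and 174.2 CPM in the libraries labelled deficient, against 212.8, 207.0 and 188.5 CPM in those labelled sufficient, and fell by 0.23 ± 0.05 (adjusted p = 0.00838, edgeR). Eloc and Rbx1 were higher in all 3 libraries low in Trim28, but the nearest low and high libraries of Eloc, at 38.7 and 38.6 CPM, were nearly equal. The label groups of Crebbp did not overlap. Over all tested genes 26.4% did not overlap by Trim28 level and 12.8% by label.

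Of 13 other bHLH-PAS family genes, 7 were tested. In the 4 libraries 0 of these rose, 2 fell and 5 did not pass (median log2 fold change -0.10), beside 9.96% higher and 7.39% lower over all tested genes. With all 6 libraries 0 were called. The other 6 (Ahrr, Arntl2, Npas1, Npas3, Sim1 and Sim2) had at most 0.402 CPM in any library. Npas4, an activity-induced factor known from neurons, had 16.5, 10.8 and 18.7 CPM in the libraries labelled deficient, against 21.9, 22.8 and 11.1 CPM in those labelled sufficient, and fell by 0.71 ± 0.16 on the log2 scale in the 4 libraries (adjusted p = 0.00669, edgeR). Arntl, the circadian factor BMAL1, fell by 0.36 ± 0.09 (adjusted p = 0.00942, edgeR), at 36.9, 33.4 and 43.8 CPM in the libraries labelled deficient and 47.6, 43.2 and 35.0 CPM in those labelled sufficient. Both were lower in all libraries low in Trim28. Of the 7 tested genes 4 were (Npas4, Arntl, Npas2 and Ncoa1), and 1, Ncoa2, was higher in all of them. Over all tested genes 14.5% were lower and 11.9% higher without overlap.

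Of 38 HIF target genes, 32 were tested, and in the 4 libraries 3 of these rose, 1 fell and 28 were not called, a share of calls under the 17.4% over all tested genes. The median log2 fold change was -0.002, beside -0.002 over all tested genes, and 0 were called with all 6 libraries. Bnip3l, a mitophagy receptor, had 131, 127 and 137 CPM in the libraries labelled deficient, against 95.4, 86.3 and 127 CPM in those labelled sufficient, and rose by 0.51 ± 0.06 (log2, adjusted p = 7.07e-05, edgeR). The glycolytic enolase Eno1 rose by 0.38 ± 0.07 (adjusted p = 0.000975, edgeR) and the stress-responsive gene Ndrg1 by 0.38 ± 0.11 (adjusted p = 0.0289, edgeR). The glucose transporter Slc2a3 fell by 0.20 ± 0.06 on the log2 scale (adjusted p = 0.0349, edgeR). It had 96.8, 93.7 and 124.4 CPM in the libraries labelled deficient, against 111.5, 108.1 and 118.4 CPM in those labelled sufficient. By Trim28 level the sets of Slc2a3 and Bnip3l overlapped, while Eno1 and Ndrg1 were higher in all low libraries. Of the 32 tested targets, 5 were higher and 4 lower (Pfkfb3, Slc16a3, Kdm3a and Rora) in all low libraries. Over all tested genes 11.9% were higher and 14.5% lower without overlap. The 28 that did not pass ranged from -0.50 (Hk2) to 0.38 (Bnip3). Among them Gapdh had only 4.37 to 7.03 CPM and Pgk1 4.55 to 6.99 CPM, beside 335 to 378 CPM for Ldha. Whether all reads of Gapdh and Pgk1 were counted was not tested, so these genes are uncertain in level. Vegfa, Adm, P4ha2, Ak4, Car9 and Ppp1r3c, at no more than 1.75 CPM, were not tested.

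Of 16 AHR target genes, 7 were tested. In the 4 libraries 0 of these rose, 3 fell and 4 did not pass, beside 9.96% higher and 7.39% lower over all tested genes, and with all 6 libraries 0 were called. The median log2 fold change in the 4 libraries was 0.14, opposite in sign to the 3 that fell. Asb2, a ubiquitin ligase subunit, had 3.97, 4.72 and 8.10 CPM in the libraries labelled deficient, against 12.0, 10.4 and 6.02 CPM in those labelled sufficient, and fell by 1.36 ± 0.20 on the log2 scale in the 4 libraries (adjusted p = 0.000226, edgeR). Gpr15, a homing receptor of T cells for the colon, fell by 0.98 ± 0.22 (adjusted p = 0.00659, edgeR), at 4.76, 6.43 and 10.4 CPM in the libraries labelled deficient and 13.1, 9.04 and 5.05 CPM in those labelled sufficient. Both were lower in all libraries low in Trim28, while 2 others of the list, Scin and Nfe2l2, were higher in all of them. Over all tested genes 26.4% did not overlap by Trim28 level. The cytokine gene Il10, at 0.694, 0.502 and 2.64 CPM in the libraries labelled deficient and 1.19, 2.46 and 1.26 CPM in those labelled sufficient, fell by 1.58 ± 0.49 (adjusted p = 0.0365, edgeR), but its Trim28 sets overlapped. The classical AHR target Cyp1a1 had 0 to 3 counts in any library and the AHR repressor Ahrr 1 to 4 counts, and Cyp1a2 and Cyp1b1 had 0, so a change in them was not detectable at this depth.

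**Figure D4:**
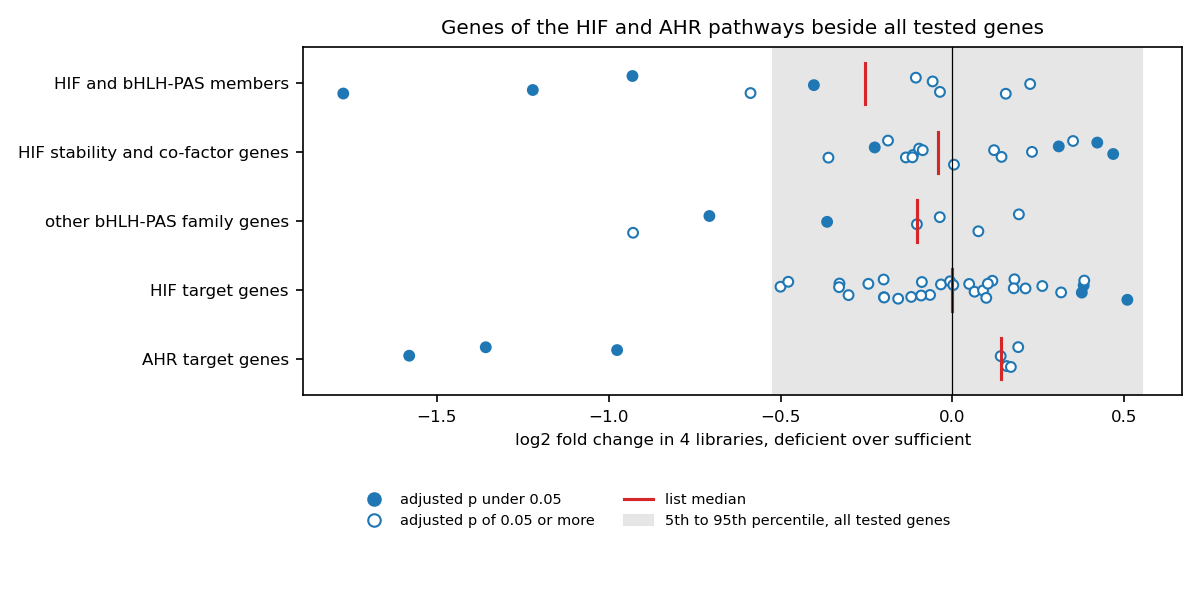
Log2 fold change, deficient over sufficient, in the 4 libraries for the tested genes of the 10-gene set and of each further list, filled where the adjusted p was under 0.05, with list medians in red and the 5th to 95th percentile of all tested genes (-0.52 to 0.55) in grey. Arnt2, Hif3a, Epas1 and Egln3 lie below the grey band, as do Npas2 and Npas4 of the other bHLH-PAS genes and Asb2, Gpr15 and Il10 of the AHR targets. The HIF targets lie inside it.

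Several of these calls changed with the tool or in smaller fits. With DESeq2 the calls on Rbx1, Ptges3, Crebbp, Arntl, Ndrg1, Slc2a3 and Il10 were lost, and leaving out 1 of the 4 libraries, which sets 2 libraries against 1, ended those on Rbx1, Crebbp, Npas4, Arntl, Ndrg1, Slc2a3, Gpr15 and Il10 in at least 1 case. In these smaller fits every one of these genes kept its direction. Log2 fold changes shrank, among others, for Npas4 (-0.43 without deficient replicate 2), Ndrg1 (0.21 without deficient replicate 2) and Il10 (-0.97 without sufficient replicate 2). Over all alternatives run on the 4 libraries they ranged from -1.05 to -0.43 for Npas4 and 0.21 to 0.53 for Ndrg1. The range was -2.00 to -0.97 for Il10 and -1.22 to -0.68 for Gpr15. Upper-quartile scaling ended the call on Rbx1, and limma-voom that on Il10. Ptges3, Rbx1, Bnip3l and Eno1 are also uncertain in level: in the authors' deposited table their mean levels were 1597, 587, 2223 and 0.171, against mean counts of 358, 314, 1205 and 851 here, whereas the 10 members had 0.938 to 1.14 times their mean count.

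The authors' deposited table of their own comparison, whose libraries are not stated, gives log2 fold changes with sufficient over deficient, the reverse of the direction above. Trim28 stands there at 3.11 with an SE of 0.078. The 6 libraries as labelled did not give such a value above (-0.90 ± 1.46, deficient over sufficient), while the 4 gave -3.54 ± 0.08. In the authors' deposited table, of the 10 genes, 3 had an adjusted p under 0.05, where 6.87% of 12072 genes did: Hif3a at 0.49 (adjusted p = 0.00476), Ahr at 0.37 (adjusted p = 0.00393) and Arnt2 at 0.36 (adjusted p = 0.0429). Epas1, at 0.23, did not pass in the authors' deposited table (adjusted p = 0.367), nor did Egln3 at 0.30 (adjusted p = 0.178) or Vhl at -0.20 (adjusted p = 0.261). All 3 genes that passed are higher in sufficient there. The SE in that table was 0.120 for Arnt2, against 0.32 in the 4-library test above, and 0.0169 for Eno1 at a mean level of 0.171. Whether fold changes of genes with few counts were reduced there is not stated. Their sizes therefore cannot be set beside those above. The q-values that the authors' deposited table also lists, by a method it does not state, were 0.131 for Hif3a, 0.114 for Ahr and 0.658 for Arnt2. That table and the fits above share libraries, so neither is independent of the other.

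The genes whose pattern over the 6 libraries was most like that of a member, by the root mean square difference of centred log2(CPM + 0.5) among 11734 genes of at least 1 CPM on average, were found for Arnt2, Hif1a and Ahr. For Arnt2 they were the amino acid transporter Slc7a10 (0.09), the AHR target Asb2 (0.12) and the kinesin Kif18b (0.16), beside 0.59 for Arnt2 against its own mean and a median of 0.59 over all genes. Slc7a10 had 2.48, 3.32 and 4.37 CPM in the libraries labelled deficient, against 8.61, 8.74 and 4.27 CPM in those labelled sufficient, with both libraries of replicate 3 between the other pairs, as for Arnt2. For Ahr the nearest were Pmf1 (0.04), Rrm1 (0.04) and Glns-ps1 (0.05), beside 0.22 for its own mean and a median of 0.24. Pmf1 encodes a kinetochore protein and Rrm1 a subunit of ribonucleotide reductase. For Hif1a they were Ubxn2b, 4933427D14Rik and Hnrnpr (0.02 each), beside 0.08 for its own mean and a median of 0.14. These are descriptions over 6 points that share their libraries.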

How the data were processed

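RNA of 6 sorted Treg libraries was measured. Per the labels' protocols, libraries were made with a TruSeq RNA kit. The submitters' processing notes name the build mm10 and the tools HTSeq (0.7.2), TopHat2 (2.1.1) and DESeq2. The sources used here do not give their settings, the annotation or whether counting used strand. The authors deposited whole-number counts per gene, and a comparison table with a mean level (signal), log2 fold changes, their standard error and test statistic (scores), q-values, and raw and adjusted p-values.

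Members, gene lists and the 4-library comparison were chosen with earlier results of these data known. Of the 37991 rows, 32919 have a symbol; the 5072 without one hold 0.603% of counts. CPM used library totals, and RPKM the exon length of GENCODE M21. Tests used edgeR 4.0.16 (R 4.3.3; filterByExpr, TMM, robust quasi-likelihood, adjusted p under 0.05 over all tested genes), with SE derived from the fold change and its F statistic. The fits were tested on simulated data. Log values used a pseudocount of 0.5 CPM. Alternatives were DESeq2 1.42.0, limma-voom (limma 3.58.1), other scaling factors, no low-count filter, a non-robust fit, a replicate block, other pseudocounts and each library left out.

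Named genes were Trim28, the 10 members, up to 4 genes called in each direction of each list, and the 3 genes nearest in pattern to Arnt2, Hif1a and Ahr. Same-numbered libraries did not deviate together from their group means in the 4 libraries (correlation -0.0198), so numbers were not taken to pair them. In all 6 the correlations were -0.613 to -0.292. These cannot decide on pairing, since both libraries of replicate 3 have Trim28 against their label. Intervals and floors cover counting error only.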

Additional observations from a re-analysis of the deposited data

How the results depend on the processing

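With all 6 libraries, 0 of the 10 genes, and 0 of each further list, passed the test. Leaving out both libraries of replicate 3, a choice made after earlier results were seen, gave 4 of the 10, 4 HIF stability and co-factor genes, 2 other bHLH-PAS genes, 4 HIF targets and 3 AHR targets. Leaving out 1 library of the 6 gave 0 to 1 of the 10 (1, Arnt2, without the library labelled sufficient replicate 3), 0 to 3 HIF stability genes and 0 to 2 HIF targets. Over all genes the 6-library count was 2, and it was 6 with DESeq2, 3 without the filter on low counts, 1 with limma-voom, 1 without the robust fit, 0 with the replicate block and 807 without the library labelled sufficient replicate 3. In the 4 libraries DESeq2 called 2 of the 10 genes in place of 4, 1 HIF stability gene, 1 other bHLH-PAS gene, 2 HIF targets and 930 genes in place of 2114. Leaving out 1 of the 4 libraries gave 3 to 4 of the 10 and 0 to 2 other bHLH-PAS genes (0 without deficient replicate 2). With the replicate block, 6 of the 10 were called in the 4 libraries and 0 with all 6. Without the filter it was also 6, with Hif1a and Egln3 added in both. Hif3a (log2 fold changes -1.51 to -0.98) and Arnt2 (-1.91 to -1.64) kept their calls in every alternative run on the 4 libraries. Of the members' fold changes, 7 of 140 values changed sign with all 6 libraries and 3 of 110 with 4, none of them a called value. Arnt2, Epas1 and Hif3a rest on 10 to 71 counts per library, which limits their precision.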
